A study of Mus musculus with 2031 samples.

Results

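The respiratory chain subunits encoded in the nuclear genome were followed across the astrocytes and other cells that had been sorted from adult mouse cortex and hippocampus. Members were taken by gene symbol alone, from name patterns for complexes I to V and cytochrome c, and 78 of the 49568 symbols in the count table matched. Of the 78 genes, 36 encode subunits of complex I, 4 of complex II, 9 of complex III, 1 cytochrome c, 13 of complex IV (Ndufa4 included) and 15 of ATP synthase (complex V). Symbols are those of the count table (Atp5b, Atp5a1 and so on).

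The cells came from C57BL/6J mice at postnatal day 56, with no transgene and no treatment named in the labels. Living cells that carried the astrocyte surface antigen ACSA-2 and lacked the oligodendrocyte antigen O1 were sorted singly into wells, and each was sequenced on its own by a full-length mRNA protocol (Smart-seq2). Each of the 2 cortical suspensions came from 1 mouse, both of the same litter, whereas each of the 2 hippocampal suspensions pooled 4 littermates from a litter of its own. Brain area, litter and pooling therefore cannot be told apart. The suspension, not the cell, was the replicate, so counts were summed over the cells of a class in each suspension, and sums of fewer than 5 cells were left out of tests. Values of single suspensions are given in the order cortical 1, cortical 2, hippocampal 1 and hippocampal 2.

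Of 2031 cells, 2030 were used, with 600758 to 3238215 gene counts per cell (median 1458411). Cell types and the astrocyte subtypes AST1 to AST5 are the study's own assignments, which rested on the same counts. Astrocytes (1781 cells) gave 4 sums of 393 to 499 cells, mural cells (pericytes and smooth muscle) 4 sums of 27, 12, 48 and 47, endothelial cells 3 sums of 6 to 12, and neuronal cells 2 sums of 8 and 9, both hippocampal. AST4, of whose 91 cells 2 were cortical, gave 2 hippocampal sums (41 and 48 cells) and AST5 3 sums of 6 to 10 cells. The summed level of the astrocyte marker list was 42972 to 44734 CPM (counts scaled to the same total in every sum) in the astrocytes and 3145 to 3485 in the mural cells, and that of the mural list was 49328 to 59250 in the mural cells. All cells other than astrocytes had passed an astrocyte gate, so they need not represent their types. The levels below are relative to the gene counts of the same sum, so less RNA of the chain and more RNA of other genes cannot be told apart.

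In the respiratory chain, complex I (NADH dehydrogenase) and complex II (succinate dehydrogenase) pass electrons to ubiquinone, complex III carries them on to cytochrome c, and complex IV (cytochrome c oxidase) reduces oxygen. The proton gradient that builds up drives ATP synthase. Except for complex II, each complex is assembled from subunits of the nuclear and the mitochondrial genome, and some nuclear subunits have isoforms that are used in particular tissues. Astrocytes are known for a high rate of glycolysis, yet they hold the whole chain and oxidise fatty acids and glutamate with it.

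The 78 genes sit on 18 chromosomes, and promoters are shown for 3 members on which later results turn (Sdha, Ndufa4 and Cox8a) and for Cox6a1, as an example that held matches to both the NRF1 and the ETS motif. RefSeq (GRCm38.p6) gave the 250 bases before the start of 65 of the 78 genes, and these were searched on both strands for the nuclear respiratory factor 1 (NRF1) core motif, CCGGAAG (an ETS motif) and AAGATGG (a YY1 motif). The NRF1 motif occurred in 13 of the 65 members and in 1144 of 27025 genes (4.23%), CCGGAAG in 12 (18.5%) and in 2115 genes (7.83%), and AAGATGG in 1 (1.54%) and in 1401 genes (5.18%). At least 1 of the 3 was found in 22 members (33.8%) and in 4279 genes (15.8%). A match describes the letters only. The promoters below are those of Sdha (chr13:74350241-74350490, minus strand), whose product is the flavoprotein of complex II and which held 3 NRF1 matches, Cox6a1 (chr5:115348959-115349208, minus strand), a complex IV subunit with 2 such matches and a CCGGAAG match, and Ndufa4 (chr6:11907451-11907700, minus strand) and Cox8a (chr19:7217617-7217866, minus strand), 2 complex IV subunits that held no match. Capitals mark the matches. The starts are those of RefSeq. By the gene positions used elsewhere here, the windows of Sdha, Cox6a1 and Ndufa4 reach into the gene at their end. The last Sdha match and the CCGGAAG match of Cox6a1 lie in that part.
Sdha: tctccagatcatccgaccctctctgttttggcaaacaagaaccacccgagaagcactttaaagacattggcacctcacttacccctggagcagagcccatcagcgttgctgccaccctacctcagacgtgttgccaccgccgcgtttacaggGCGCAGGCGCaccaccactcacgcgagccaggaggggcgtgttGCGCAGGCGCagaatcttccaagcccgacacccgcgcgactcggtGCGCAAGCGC
Cox6a1: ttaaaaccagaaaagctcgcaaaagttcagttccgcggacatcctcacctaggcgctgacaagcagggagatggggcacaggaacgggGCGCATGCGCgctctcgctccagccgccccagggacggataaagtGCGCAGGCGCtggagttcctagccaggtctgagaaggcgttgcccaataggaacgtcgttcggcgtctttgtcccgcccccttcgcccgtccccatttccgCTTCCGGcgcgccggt
Ndufa4: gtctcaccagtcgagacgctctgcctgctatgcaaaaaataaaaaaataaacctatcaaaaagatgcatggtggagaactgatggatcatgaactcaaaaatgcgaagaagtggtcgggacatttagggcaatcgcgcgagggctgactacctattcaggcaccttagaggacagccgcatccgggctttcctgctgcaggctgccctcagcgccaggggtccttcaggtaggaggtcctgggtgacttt
Cox8a: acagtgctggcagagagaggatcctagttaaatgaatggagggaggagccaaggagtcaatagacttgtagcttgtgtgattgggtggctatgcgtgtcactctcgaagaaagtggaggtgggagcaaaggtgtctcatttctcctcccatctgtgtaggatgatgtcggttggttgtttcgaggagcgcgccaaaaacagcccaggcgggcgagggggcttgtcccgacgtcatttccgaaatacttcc

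In astrocytes the 78 genes together took 1.59%, 1.50%, 1.45% and 1.42% of the gene counts (1.49% ± 0.077, SD, n = 4). ATP synthase held 32.3% of this and complex I 29.3%, followed by complex III with 15.8%, complex IV with 13.8%, complex II with 8.29% and cytochrome c with 0.557%. All 78 were counted in every suspension, and in the median astrocyte 47 of them had at least 1 count (44 after each cell was thinned to 50000 counts).

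Levels per kb below are per kb of the shortest of the best-ranked annotated transcripts of a gene. Atp5b (chr10:128083273-128090391, plus strand), which encodes the catalytic beta subunit, was the highest of all members, at 1703, 1603, 1650 and 1473 CPM (1607 ± 98.2) or 839 CPM per kb, and Atp5a1, for the alpha subunit beside it, stood at 1041 ± 43.6 CPM (421 per kb). The ring of c subunits is encoded by 3 genes with the same mature product. Per kb, Atp5g1 (141.6 CPM) and Atp5g3 (113.4) lay above Atp5g2 (44.6), but over the longest of these transcripts Atp5g1 came to 17.9 CPM per kb, and every 75-base window of Atp5g2 and 59.6% of those of Atp5g1 also occur in another gene, so reads could be lost or split there. Among complex I genes Ndufb9, an accessory subunit, stood at 360 CPM per kb, while Ndufv1 (chr19:4007384-4012806, minus strand), which binds NADH, was at 136.7 and Ndufs1 (chr1:63143596-63176833, minus strand), the largest core subunit with iron-sulphur clusters, at 75.7 (193.7, 183.7, 197.5 and 209.6 CPM). Ndufc2 (chr7:97400003-97407802, plus strand), a small subunit of the membrane arm, varied more between suspensions, at 175.5, 165.4, 248.03 and 271.2 CPM. Both hippocampal values were the higher ones.

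Complex II was represented by Sdha (chr13:74322254-74350280, minus strand; 636 ± 51.3 CPM, 219.3 per kb) and Sdhb, its iron-sulphur subunit (324.8 ± 44.5 CPM, 284.4 per kb). In complex III, the core protein gene Uqcrc1 (chr9:108936633-108949623, plus strand) reached 817 ± 62.4 CPM (494 per kb), the Rieske iron-sulphur protein gene Uqcrfs1 400 ± 48.8 CPM (293.4 per kb) and Cyc1 (chr15:76343523-76346260, plus strand), for cytochrome c1, 338.3 ± 66.1 CPM (222.6 per kb). Cycs (chr6:50562563-50566538, minus strand), for the mobile cytochrome c, was at 83.3 ± 14.3 CPM, which is 26.7 per kb over its long transcript. Complex IV was led by Cox4i1 (chr8:120668222-120674207, plus strand), for the regulatory subunit IV (501 ± 30.5 CPM, 673 per kb), and Cox8a (chr19:7215153-7217616, minus strand), for its smallest subunit (324.9 ± 16.7 CPM, 591 per kb). Ndufa4 (chr6:11900292-11907497, minus strand), once assigned to complex I and now placed in complex IV, was at 165.7, 149.6, 184.7 and 178.0 CPM (277.9 per kb), and Cox5a at 122.2, 117.7, 93.3 and 79.6 CPM (160 per kb). Cox7a1, the heart and muscle isoform of subunit VIIa, was the lowest member, at 2.71, 2.54, 0.576 and 2.58 CPM, with a count in 4.10% of astrocytes, whereas Cox4i1 was counted in 93.8% and Atp5b in 92.9%. Positions are in GRCm38.

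The other tissue isoforms of complex IV and cytochrome c, which are no members, were at or near 0 in astrocytes. Cox8c had no count in any class, Cox6a2 (heart and muscle) none in astrocytes, and Cyct (testis) was counted in 0.11% of them. Cox6b2 (testis) stood at 4.23, 2.84, 5.25 and 4.27 CPM, Cox7b2 at 1.53, 1.47, 2.84 and 3.88, and Cox8b at 0.71, 0.27, 0.37 and 0.40.

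Across classes, the summed share of the 78 genes was highest in AST5 and lowest in endothelial cells among the classes with tests. AST5 stood at 2.46%, 2.33% and 2.52% in cortical 1, cortical 2 and hippocampal 1 (1.61 times the astrocytes of the same suspensions). Mural cells were at 1.24%, 1.24%, 1.17% and 1.08% (0.793 times) and endothelial cells at 0.929%, 1.07% and 0.918% in cortical 1, hippocampal 1 and hippocampal 2 (0.655 times). Every mural and endothelial sum lay below, and every AST5 sum above, all 4 astrocyte sums. AST4 was at 1.21% and 1.23% in the hippocampal suspensions (0.848 times), below both hippocampal astrocyte sums, and neuronal cells at 1.56% and 1.54% (1.08 times). AST1 (1.46% ± 0.081), AST2 (1.49% ± 0.124) and AST3 (1.50% ± 0.054) overlapped one another. The 11 microglial cells gave 0.740%, 0.866%, 0.330% and 0.409%, without a test. These shares depend on no fitted scaling, whereas the calls below do. The 13 protein genes of the mitochondrial genome took 2.77% of counts in astrocytes, 1.38% in mural, 1.79% in endothelial and 0.974% in neuronal cells, so the neuronal sums were below the astrocytes in these and not in the nuclear genes.

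**Figure D1:**
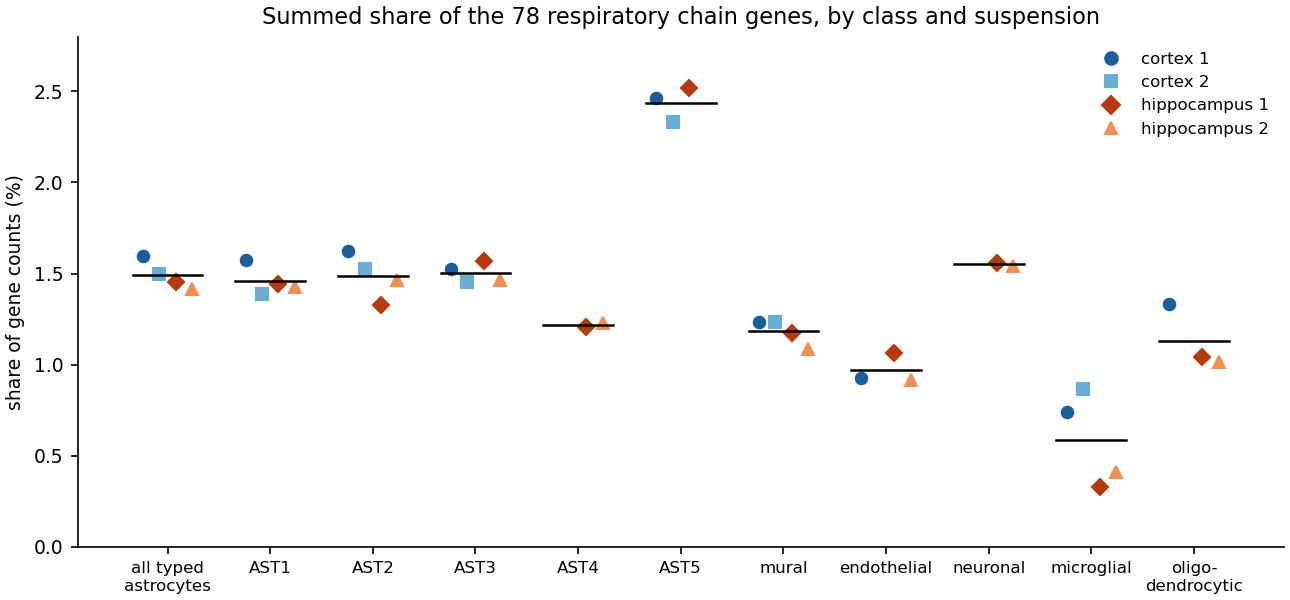
Summed share of the 78 respiratory chain genes in the gene counts (%, y axis) in each of 11 classes (x axis), with a point for each suspension and a black line for the mean. The AST5 sums (2.33% to 2.52%) lie above all other sums, and the mural sums (1.08% to 1.24%) lie below the 4 astrocyte sums (1.42% to 1.59%).

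The complexes did not keep one ratio. Relative to astrocytes of the same suspensions, complex III was the lowest of the 5 complexes in AST4 (0.690 times, at 0.142% and 0.158% against 0.217% and 0.218%), while complex I was near the astrocyte level (0.940 times). The AST4 sums of complex II lay on either side of it (1.19 and 0.895 times). Of its genes only Sdha had a higher mean CPM in AST4 than in AST1 to AST3 (1.32 times). Sdhb, Sdhc and Sdhd were at 0.655, 0.862 and 0.675 times. The Sdha ratio rests on 2 AST4 sums that differed widely (817 ± 236.8 CPM, SD). The sums of AST1 to AST3 had a median of 646.3 CPM, and their mean includes a low one of 31.9. In neuronal cells, too, complex III was the lowest of the 5 (0.728 times, at 0.190% and 0.126%), while complex I was at 1.152 times and complex V at 1.145 times. In endothelial cells complex II was lowest (0.449 times, at 0.0522%, 0.0460% and 0.0664%) and complex IV highest (0.845 times). In mural cells the 13 members of complex IV were lowest (0.679 times), and complexes II (0.854 times) and V (0.855 times) were level at the top. The paralogues Ndufa4l2 and Cox4i2, abundant in mural cells and described below, are no members and were not counted in complex IV. In AST5 all were above 1, from complex II (1.30 times) to complex IV (1.85 times). These ratios carry no test.

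**Figure D2:**
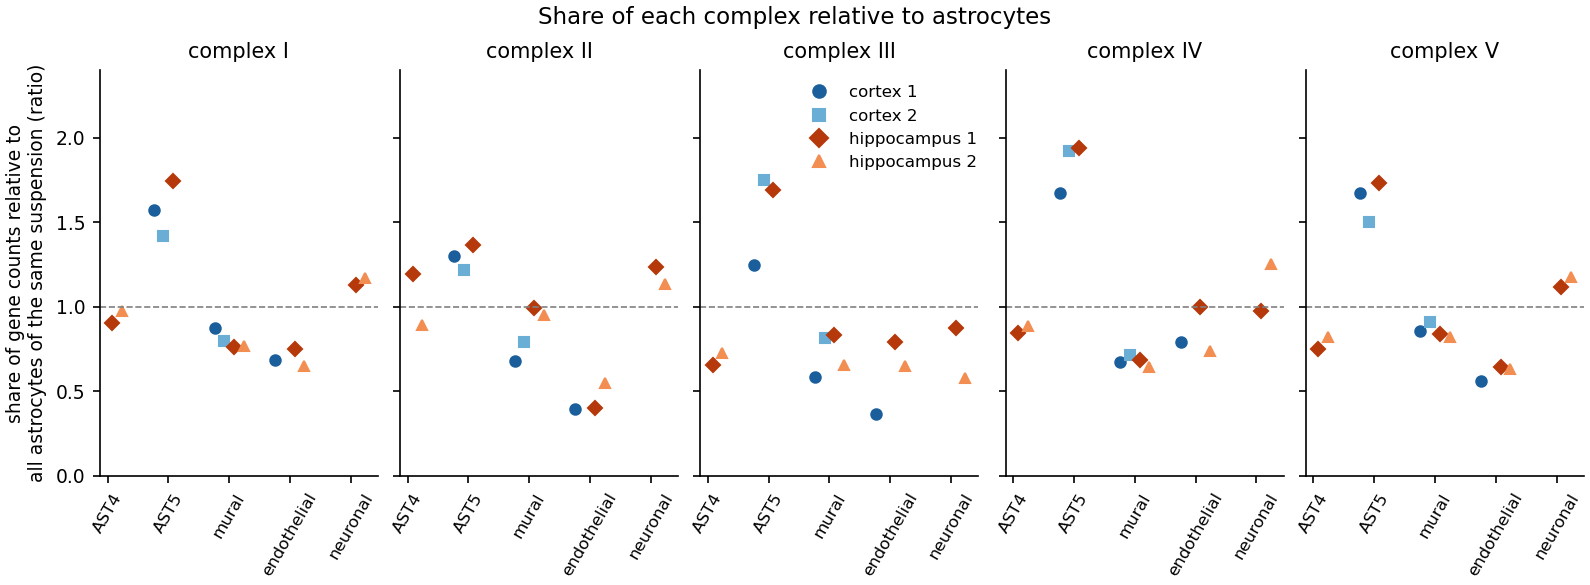
Share of each complex relative to all astrocytes of the same suspension (y axis, dashed line at 1) in AST4, AST5, mural, endothelial and neuronal cells, with 1 panel a complex and a point for each suspension. In AST4 complex III has the lowest mean ratio of the 5 complexes (0.690) and complex II the highest (1.04).

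Mural cells were compared with astrocytes to ask how the chain differs between the astrocytes and the vessel cells that came through the sort. Their most distinct member was Ndufa4, which stood at 4.01, 0, 4.05 and 2.43 CPM in mural cells and at 149.6 to 184.7 in astrocytes, and was called lower (log2 difference −6.58 ± 1.33 SE, adjusted p = 0.0196 by edgeR). The groups did not overlap, and the call held when samples were scaled by the total gene count only (−6.02, adjusted p = 0.0242). It was lost when cortical 1, hippocampal 1 or hippocampal 2 was left out (adjusted p of 0.111 to 0.112), with differences of −7.65 to −6.58. Ndufa4l2 (chr10:127514967-127517154, plus strand), the hypoxia-inducible paralogue of Ndufa4, showed the opposite order, at 555.6, 550.0, 447.4 and 370.7 CPM in mural cells and 0.0798 ± 0.0916 in astrocytes (12.74 ± 1.96, adjusted p = 0.00656). Its gene overlaps Shmt2, and none of its 75-base windows occurs elsewhere.

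The same contrast was seen in single cells. Of the mural cells 96.3% had a count of Ndufa4l2 and 3.73% (5 cells) of Ndufa4, with 4 cells holding both. Of 1781 astrocytes, 1395 (78.3%) had a count of Ndufa4 and 4 (0.225%) of Ndufa4l2. After thinning to 50000 counts per cell the mural shares were 96.3% and 2.99%. Of the 7 endothelial markers Emcn (345.3 CPM in mural cells against 0.000322 in astrocytes), Flt1 (187.8 against 0.386) and Cldn5 (82.1 against 0.109) were called higher in the mural sums and Slco1c1 lower (22.6 against 1535). The summed list stood at 490.4 to 972 CPM in mural cells, 1131 to 1959 in astrocytes and 16813 to 23314 in endothelial cells. In astrocytes Slco1c1 (1535 CPM) made up nearly all of its mean of 1536, so the sum does not rank endothelial RNA between mural cells and astrocytes. The part of endothelial RNA in the mural values was not tested.

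In the isoform pair of subunit IV both genes were abundant in mural cells. Cox4i2 (chr2:152754173-152765037, plus strand), the isoform of subunit IV known from lung and oxygen-sensing vessels, stood at 453.7, 686.7, 524.9 and 398.4 CPM in mural cells and 7.04 ± 2.53 in astrocytes, and was called higher (5.65 ± 0.61, adjusted p = 0.000955). Cox4i1 stayed abundant beside it, at 367.9, 242.3, 315.2 and 299.6 CPM, below all astrocyte sums (463 to 538), and was called lower (−1.30 ± 0.23, adjusted p = 0.00915, or −0.71 and 0.043 with the total gene count only). Cox4i1 was counted in 73.1% of mural cells (98) and Cox4i2 in 83.6%, with both in 80 cells. Cox4i2 was counted in 5.22% of astrocytes. Higd1b, a paralogue of the factors that bind complexes III and IV, was also higher in mural cells (1276 against 0.219 CPM, 11.90 ± 2.07, adjusted p = 0.0094). Cox7b2 and Cox8b, at 2.43 and 0.434 CPM in astrocytes, were at 0 in the mural sums and were called lower.

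**Figure D3:**
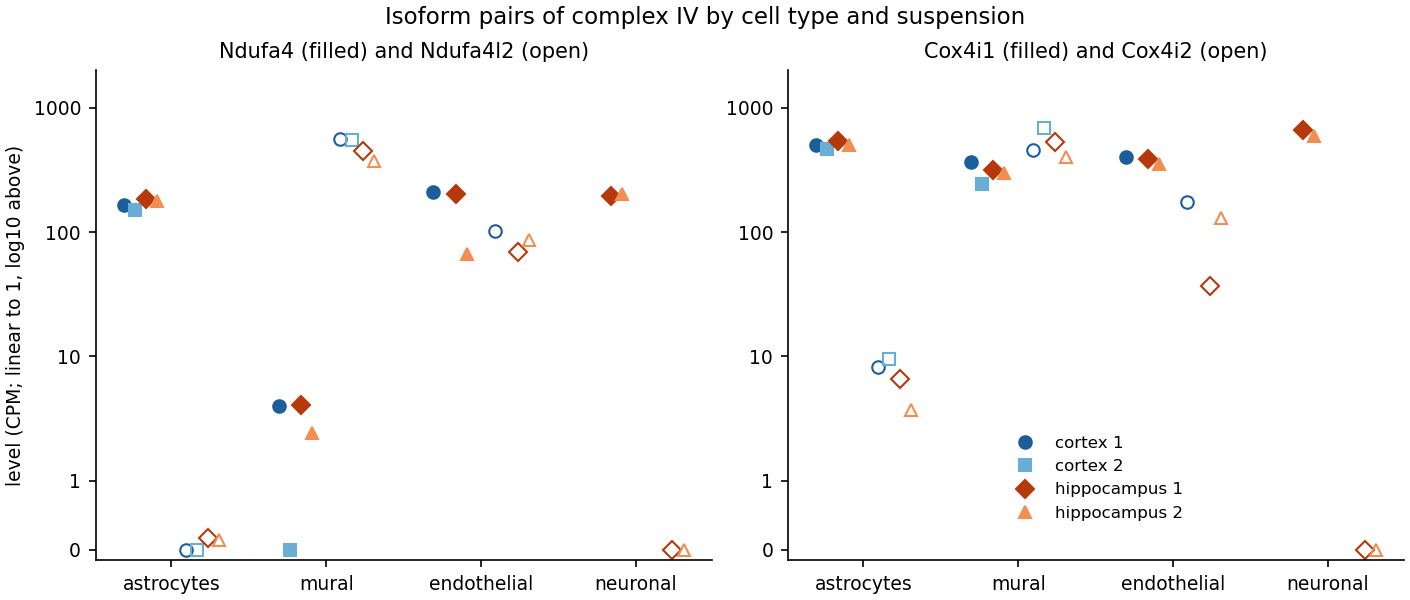
Level (CPM, y axis, linear up to 1 and log10 above) of Ndufa4 and Ndufa4l2 in one panel and of Cox4i1 and Cox4i2 in the other, in astrocytes, mural, endothelial and neuronal cells, with a point for each suspension, filled for the first gene and open for the second. In mural cells Ndufa4l2 (370.7 to 555.6) lies far above Ndufa4 (0 to 4.05), and Cox4i2 (398.4 to 686.7) lies above Cox4i1 (242.3 to 367.9).

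Of the 78 members 0 were called higher and 15 lower in mural cells, where 2.37% and 12.7% of all 17404 genes tested were called higher and lower (27 members at an unadjusted p under 0.05). The 15 were spread over complexes I (3), II (1), III (3), IV (4) and V (4). Besides those above, the largest differences were in Ndufc2, at 52.97, 12.7, 21.6 and 65.4 CPM (−3.06 ± 0.76, adjusted p = 0.0301), and Uqcrfs1, at 168.1, 141.9, 141.9 and 206.8 CPM (−1.92 ± 0.50, adjusted p = 0.0311). Both lay below every astrocyte sum. Complex III also gave Uqcrc2, the second core protein (139.4, 102.1, 96.4 and 90.6 against a mean of 253.3 CPM, −1.85 ± 0.55), and complex II gave Sdhb (201.2, 187.1, 112.3 and 187.7 CPM, −1.51 ± 0.38). The list was filled by the complex IV subunit Cox5b (a mean of 60.3 against 117.2 CPM, −1.56 ± 0.46), the complex I accessory subunit Ndufb10 (109.7 against 195.2, −1.43 ± 0.40) and Atp5h, the d subunit of the ATP synthase stalk (111.3 against 185.96, −1.36 ± 0.36), with adjusted p between 0.0301 and 0.0475. Cox5a, which stands beside subunit IV, was at 46.3, 16.8, 31.9 and 24.3 CPM, below all astrocyte sums, and missed the threshold (−2.35 ± 0.73, adjusted p = 0.0562).

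Most of these calls turned on the scaling between samples. The fitted median over all genes tested was −1.36 and over the members −0.99, with 77 of 78 members below 0. With the total gene count only, the median of all genes moved up by 0.57, the median of the members was −0.40 with 65 below 0, and 3 members were called lower (Ndufa4, Ndufc2 and Cox4i1), where 11.6% of all genes were. Atp5b shows the difference: its mean was 1576 CPM in mural cells and 1607 in astrocytes, and its call as lower (−0.64) was lost with the total gene count only (−0.04, adjusted p = 0.931). Leaving out cortical 1, hippocampal 1 or hippocampal 2 left 0 calls and leaving out cortical 2 left 2, DESeq2 called 12 lower, where it called 22.2% of all genes, and a fit with the suspension as a block called 2. On CPM, 27 members lay below all astrocyte sums and 1 above, where 27% and 9.91% of all genes tested lay below and above. The one above was Cox7a2l (105.7, 237.5, 103.2 and 160.98 against 90.4, 72.9, 72.9 and 88.4, adjusted p = 0.813).

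**Figure D4:**
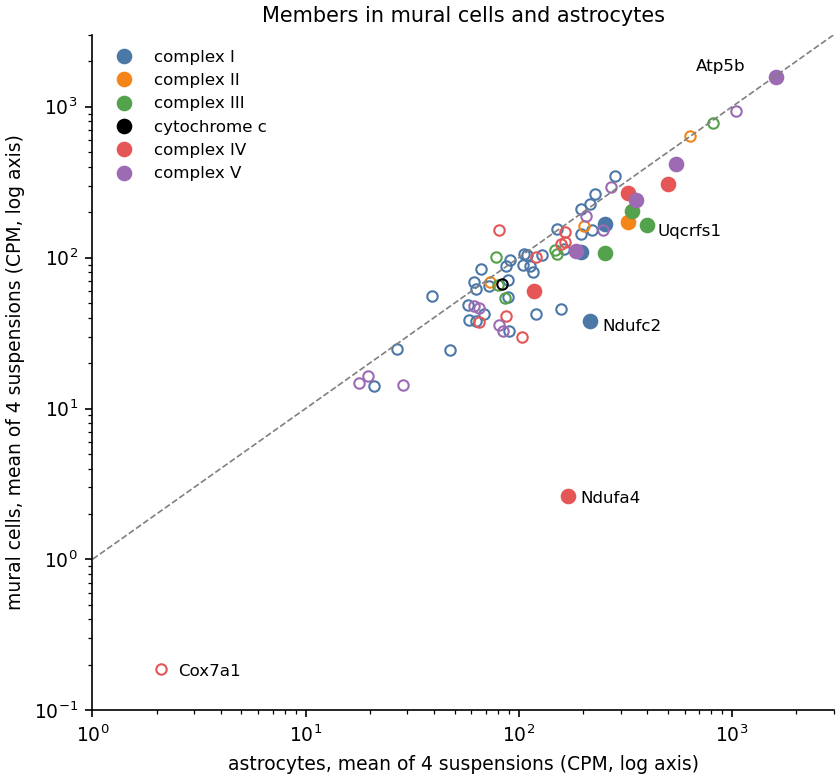
Mean level of each of the 78 members (CPM, log10 axes) in astrocytes (x axis) and in mural cells (y axis), coloured by complex, filled where edgeR called the gene lower, with a dashed line of equal level. Ndufa4 lies far below the line (170 against 2.62), while Atp5b, also called lower, lies on it (1607 against 1576).

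Endothelial cells were compared with astrocytes in the same fit. 0 members were called higher and 14 lower, where 1.59% and 4.02% of all genes were (32 members at an unadjusted p under 0.05), and 5 of the 14 belong to ATP synthase. Sdha stood at 107.8, 207.4 and 407.9 CPM, all below the astrocytes at 563 to 681 (−2.38 ± 0.40, adjusted p = 0.00849). Atp5b was at 1119, 807 and 919 CPM, also below every astrocyte sum (−1.51 ± 0.16, adjusted p = 0.000528). These 2 were the only members called with the total gene count only (−1.59, adjusted p = 0.0339, and −0.73, adjusted p = 0.00848), where 3.08% of all genes were called lower. With limma voom Atp5b was called (adjusted p = 0.00225) and Sdha was not (adjusted p = 0.129).

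The other called members with the largest differences were Uqcrfs1 (34.01, 120.2 and 235.5 CPM against a mean of 400, −2.62 ± 0.61), Atp5o, for the stalk protein that confers oligomycin sensitivity (182.2, 54.5 and 69.5 against 248.9, −2.10 ± 0.47), Ndufb10 (a mean of 85.8 against 195.2, −1.92 ± 0.45), the complex III hinge gene Uqcrh (53.1, 86.3 and 78.98 against 151.3, −1.89 ± 0.46), Cox6c (89.2, 63.8 and 74.6 against 164.2, −1.86 ± 0.47), Sdhb (269.6, 102.2 and 115.9 against 324.8, −1.77 ± 0.43) and Atp5f1, for the b subunit (104.3, 232.1 and 248.4 against 355.3, −1.73 ± 0.35), with adjusted p from 0.0213 to 0.0458. The median of the members was −1.35 and that of all genes −2.60, and with the total gene count only the latter moved up by 0.77 and the members stood at −0.57, with 68 of 78 below 0. Leaving out cortical 1, cortical 2, hippocampal 1 or hippocampal 2 left 2, 5, 2 and 3 calls, and a fit with the suspension as a block left 4. DESeq2 called 24 members lower, where it called 30.6% of all genes. On CPM, 32 members lay below all astrocyte sums and 2 above, where 38.4% and 10% of all genes tested did. Those above were Ndufa7 (192.5, 161.8 and 189.1 against a mean of 105.6) and Cox7a2l (129.9, 558.1 and 218.6 against 81.1), neither of them called.

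In endothelial cells Ndufa4 stood at 209.05, 202.4 and 66.8 CPM, a range that overlapped the astrocytes and lay above every mural sum. Ndufa4l2 (85.2 ± 16.2 CPM over 3 sums, 9.90 ± 1.79, adjusted p = 0.0156) and Cox4i2 (175.5, 36.7 and 130.7 CPM, 3.35 ± 0.57, adjusted p = 0.0105) were called higher than in astrocytes. Of 30 endothelial cells 21 had a count of Ndufa4, 18 of Ndufa4l2 and 14 of both. The summed mural marker list stood at 10028 to 17338 CPM in the endothelial sums, with a median over cells of 20926 where Ndufa4l2 was counted and 6513 where it was not. The part of mural RNA in these values was not tested.

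In neuronal cells, 1 member was called, where 0.201% of all genes were called higher and 2.65% lower (26 members at an unadjusted p under 0.05). This was Cox8a, at 162.9 and 141.03 CPM against 307.1 to 342.9 in astrocytes (−2.20 ± 0.36, adjusted p = 0.00635), and it was not called with the total gene count only (−1.12, adjusted p = 0.124; 0 members, 6 at an unadjusted p under 0.05), with limma voom (−2.14, adjusted p = 0.99989) or without cortical 1 (−2.19, adjusted p = 0.0554). Leaving out hippocampal 1 or 2 left a single neuronal sum, whose spread was taken from the other classes, with differences of −2.25 and −2.19 (adjusted p = 0.111 and 0.165). Of the 78 fits 72 were below 0 (median −1.19, all genes −2.34), and 45 were with the total gene count only (median −0.10), which moved the median of all genes up by 1.00, so the size of the difference over the members depended on the scaling. DESeq2 called 1 member higher and 8 lower, where it called 2.87% and 27.5% of all genes, and the higher one was Atp5l (100.1 and 129.8 CPM against a mean of 17.8), of whose windows 76.0% occur in another gene. On CPM 21 members lay above and 23 below all astrocyte sums, where 18.7% and 39.3% of all genes tested did. Sdha was among those above, at 1059 and 1015 CPM against 563 to 681, and Ndufa4 as well, at 193.8 and 202.4. Ndufa4l2 and Cox4i2 were at 0 in both neuronal sums, and Cox4i2 was called lower. Only 5.22% of astrocytes had a count of Cox4i2 and 0.225% of Ndufa4l2. A level of 0 in 17 neuronal cells therefore does not show a lower level than in astrocytes. The uncalled members with the largest differences were Atp5j2 (19.7 and 19.6 CPM against a mean of 61.5, −2.97 ± 1.16), Ndufv1 (34.6 and 95.3 against 227.1, −2.69 ± 0.70), Atp5g1 (a mean of 23.6 against 84.4, −2.62 ± 1.16) and Sdhd, a membrane anchor of complex II (137.9 and 0 against 201.3, −2.59 ± 1.88).

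The astrocyte subtypes were compared each with all other subtypes. The fit weighted the others by their cell numbers, whereas a mean CPM of the others counts each sum once, small sums included. Such means can therefore differ from the fit. Since the study had clustered the cells on these counts, these contrasts are not independent of how the subtypes were made. In AST1, AST2 and AST3 edgeR called 0 members, against 0.0384% of all 18233 genes higher and 0% lower in AST1, 0.011% and 0.0439% in AST2, and 0% in either direction in AST3 (1, 1 and 0 members at an unadjusted p under 0.05). DESeq2 called 0 as well, and so did edgeR with the total gene count only, where the median of all genes fell by 0.13 in AST1. Among the larger differences were those in Atp5g3 (0.64 ± 0.50, although its mean CPM was lower in AST1, 85.4 against 91.4), Ndufa13 (0.56 ± 0.31), Ndufb7 (0.44 ± 0.38) and Atp5e (0.41 ± 0.40, again with a lower mean, 65.4 against 72.8) in AST1 and in Atp5g2 (−0.51 ± 0.54), Ndufv2 (0.38 ± 0.20) and Ndufa6 (0.38 ± 0.54, with a lower mean in AST3, 87.9 against 95.6 CPM) in AST3. In AST2 they were in Ndufa6 (104.2, 95.6, 4.22 and 34.2 CPM, −0.88 ± 0.60), Atp5g3 (75.8, 78.2, 6.80 and 50.9, −0.81 ± 0.55), Atp5e (−0.70 ± 0.44) and Ndufa13 (165.7, 158.3, 50.8 and 87.7, −0.62 ± 0.33). In AST2 the low values were those of the hippocampal sums, which rest on 10 and 22 cells.

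AST4 had 1 called member, where 0.11% of all genes were called higher and 0.527% lower. In all, 18 members had an unadjusted p under 0.05. The called one was Atp5b, at 1037.7 and 1132.3 CPM (−0.95 ± 0.17, adjusted p = 0.0155). Its mean was 1904 over the 15 sums of the other subtypes, AST5 included, and 1668 over the 12 sums of AST1 to AST3. It was not called with the total gene count only (−0.68, adjusted p = 0.118) or with limma voom (−1.02, adjusted p = 0.982). Leaving out hippocampal 1 or 2 left a single AST4 sum, whose spread was taken from the other subtypes, with differences of −0.82 and −0.95 (adjusted p = 0.735 and 0.997), while 3 members were called without cortical 2. With hippocampal sums only, 3 members were called, among them Atp5b (−0.94, adjusted p = 0.0333) and Uqcrfs1 (−1.42, adjusted p = 0.024). The share of all genes called is not given for this fit or the one without cortical 2, so these counts are no result about the members. The median of the members was −0.51 (all genes 0.05), and −0.22 with the total gene count only, which moved the median of all genes up by 0.30. DESeq2 called 10 lower, where it called 8.3% of all genes: Cycs, Ndufs5, Cox5a, Cyc1, Atp5c1, Cox7b, Ndufc1, Ndufa12, Atp5b and Cox8a.

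Against the 12 sums of AST1, AST2 and AST3, 56 of the 78 members had a lower mean CPM in AST4 (median ratio 0.850), and 15 lay below all 12 sums and 3 above, where 3.64% and 10.5% of all genes tested lay below and above. AST4 had hippocampal sums only, whereas 6 of the 12 sums were cortical, so these ratios mix area with subtype. Against the 6 hippocampal sums alone 53 members had a lower mean (median ratio 0.837). All 9 complex III genes had a lower mean, with a median ratio of 0.673, against 0.941 in complex I, 0.769 in complex II, 0.833 in complex IV and 0.817 in complex V. Against the hippocampal sums alone the medians were 0.738 in complex III and 0.741 in complex II, which were level, and 0.946, 0.810 and 0.814 in complexes I, IV and V. The lowest ratios were those of Cycs (20.1 and 45.3 CPM, 0.376 times), Cox5a (51.3 and 44.1, 0.433 times), Uqcrfs1 (168.8 and 198.9, 0.451 times) and Cyc1 (172.7 and 139.2, 0.455 times), and against the hippocampal sums alone these were 0.393, 0.459, 0.467 and 0.490. None of these 4 was called by edgeR over all sums, with adjusted p = 0.275 for Cycs, 0.228 for Cox5a and 0.254 for Uqcrfs1. The 3 members above all 12 sums were Ndufc2 (373.5 and 399.2 CPM, 2.03 times), Cox7a2l (1.48 times) and Atp5d (1.27 times), and against the hippocampal sums alone these were at 1.80, 1.56 and 1.41 times. Sdha stood at 984.7 and 649.9 CPM and overlapped them. The summed level of the progenitor marker list was 1053 to 1303 CPM in AST4 and 40.6 to 174.8 in AST1 to AST3, and that of the astrocyte list 29590 to 31719 in AST4 and 38246 to 46969 in AST1 to AST3. Of the 8 astrocyte markers 5 were called lower in AST4 (Gja1, 1485 against 6146 CPM, Slc1a2, 2810 against 4635, Aqp4, Aldh1l1 and Gjb6), the progenitor marker Sfrp1 was called higher (86.6 against 19.6), and so was the mural marker Vtn (152.2 ± 215.1 SD over 2 sums, against 0.0811). The part of these markers in the AST4 values was not tested.

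In AST5 nearly every member had a higher mean level, but the test depended on the scaling. Against the 12 sums of AST1 to AST3, 76 of 78 members had a higher mean CPM (median ratio 1.66) and 29 lay above and 0 below all 12 sums, where 3.33% and 8.17% of all genes tested did. The 29 came from complexes I (10), III (4), IV (7) and V (7) and cytochrome c. Cox8a was at 844.0, 725.9 and 707.6 CPM (2.29 times), Atp5b at 3188, 1996 and 3361, Cox4i1 at 673, 884 and 1076, and Cycs at 126.98, 197.5 and 136.4. Among the 29 the largest ratios were those of Atp5g3 (2.68), Ndufa1 (2.53), Ndufs4 (2.44) and Cox6b1 (2.43). Cox7a1 (3.42), Ndufb2 (3.29) and Ndufa2 (2.81) had larger ratios but overlapped the 12 sums, and Ndufs1 (0.792) and Ndufab1 (0.880) were the only members below 1. By complex the median ratios ran from 1.34 (complex II) to 1.78 (complex IV).

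In the fit over all subtypes Cox8a alone was called higher (0.56 ± 0.16, adjusted p = 0.0236) and 0 members lower, where 0.356% of all genes were called higher and 16.6% lower (3 members at an unadjusted p under 0.05). With limma voom Cox8a was not called (adjusted p = 0.191). In the edgeR fit the median over all genes was −4.55 and over the members 0.07, with 42 above 0 and 36 below. With the total gene count only the median of all genes moved up by 0.17, 76 of 78 members were above 0 (median 0.74), and 25 were called higher and 0 lower, where 2.41% of all genes were called higher. These 25 were from complexes I (10), III (4), IV (6) and V (5), for example Cox8a (1.23, adjusted p = 1.7e-05), Atp5b (0.83, adjusted p = 0.000315), Cox4i1 (0.84, adjusted p = 0.000466), Cox6b1 (1.27, adjusted p = 0.000614), Atp5o (1.18, adjusted p = 0.00185), Ndufb11 (1.21, adjusted p = 0.0028), Ndufa12 (1.16, adjusted p = 0.00313) and Uqcrc2 (1.055, adjusted p = 0.00577). DESeq2 called 10 higher, where it called 1.67% of all genes. The uncalled members with the largest fitted differences were Ndufs1 (150.1, 203.7 and 129.4 CPM, −0.96 ± 0.32, adjusted p = 0.055), Ndufb2 (46.6, 15.7 and 168.99, 0.91 ± 0.67), Ndufab1 (48.7, 60.6 and 73.05, −0.86 ± 0.51) and Ndufa2 (77.3, 242.7 and 423.2, 0.74 ± 0.36). Without cortical 2 or hippocampal 2 edgeR called 0 members, without cortical 1 it called 2, and without hippocampal 1 it called 3, of which 2 were lower.

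**Figure D5:**
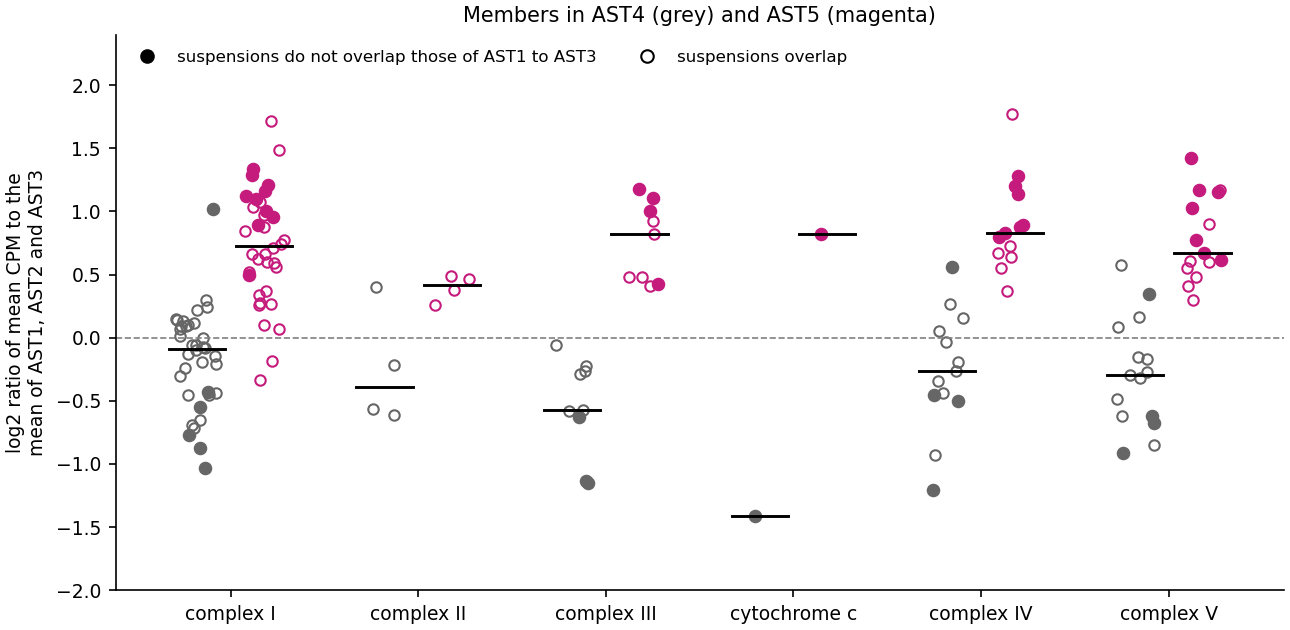
Log2 ratio of the mean CPM of each member in AST4 (grey) and AST5 (magenta) to the mean of the 12 sums of AST1 to AST3 (y axis), by complex (x axis), filled where the groups do not overlap, with a black line for the median of the complex. AST5 members lie above 0 but for Ndufs1 and Ndufab1, and all 9 complex III members of AST4 lie below 0.

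The share of reads outside exons and some marker levels also differed in AST5. The median share of reads outside exons was 1.59% in AST5 cells and 10.7% to 13.96% in AST1 to AST4, and all 26 AST5 cells were under 3%. Of AST1 to AST3 cells, 9 were under 3%, and their members took a median of 1.86% of counts against 1.45% in the other 1655. In AST4, 2 cells under 3% had a median of 2.14% and the other 89 one of 1.18%. Of the 15 cells without a type, 13 were under 3%, with a median of 2.49%, near the 2.42% of AST5 cells, and the other 2 had one of 0.733%. The median AST5 cell held 1675 genes. Of the 8 astrocyte markers 5 were called lower in AST5 (Gja1, 869 against 6611 CPM, Slc1a3, 4511 against 9536, Atp1b2, 2092 against 4732, Aqp4 and Gjb6). Slc1a2, Aldoc and Aldh1l1 were not called lower. The summed list stood at 35972 to 43713 CPM in AST5 and at 38246 to 46969 in AST1 to AST3. These ranges overlapped, so the list as a whole did not fall as those 5 genes did. With Gja1, Slc1a3 and Atp1b2 that much lower, the rest of the list together stood higher in AST5 on CPM. The summed oligodendrocyte marker list (7 genes, 2 of them at 0 in AST5) stood at 665 to 1951 CPM in AST5 and at 290.5 to 679 in AST1 to AST3. The part of these markers, or of what sets the share of reads outside exons, in the AST5 values was not tested.

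The brain areas were compared in all astrocytes, in AST1 and in AST3, and edgeR called 0 members in each, as it called 0% of all genes in either direction (12, 1 and 3 members at an unadjusted p under 0.05). In astrocytes the largest difference was in Ndufc2, at 175.5 and 165.4 CPM in cortex and 248.03 and 271.2 in hippocampus (0.63 ± 0.08, adjusted p = 0.191), followed by Cox5a (−0.45 ± 0.12), Cyc1 (−0.43 ± 0.12, adjusted p = 0.274) and Ndufab1, the acyl carrier subunit (−0.42 ± 0.11). On CPM 8 members lay higher and 33 lower in both hippocampal suspensions than in both cortical ones, where 21.9% and 24.1% of all genes tested did. DESeq2 called 2 higher (Ndufb11 and Ndufc2) and 7 lower (Ndufv2, Cyc1, Uqcrc1, Uqcrc2, Uqcrfs1, Cycs and Cox5a), where it called 4.97% and 4.72% of all genes. The summed share of the members was 0.111 percentage points lower in hippocampus. It was lower in 8 of 8 pools (−0.175 to −0.049) and in 8 of 10 reverse transcription dates (−0.242 to 0.066) that held both areas, all of them splits of the same 4 suspensions. The areas also differed in subtype makeup, with 10 and 22 of the 555 AST2 cells in the hippocampal suspensions and 57 and 55 of the 657 AST1 cells in the cortical ones. AST4, with shares of 1.21% and 1.23%, had 41 and 48 hippocampal cells and 2 cortical ones. AST5, with shares of 2.33% to 2.52%, had 8 and 10 cortical and 6 and 2 hippocampal cells. Relative to AST1 to AST3, Cycs, Cox5a, Uqcrfs1 and Cyc1 were the lowest members in AST4 and Ndufc2 the highest. The part of subtype makeup in these differences was not tested. Within AST3 the share was not lower in hippocampus (1.524% and 1.455% in cortex, 1.571% and 1.465% in hippocampus), and within AST1 the areas overlapped, whereas within AST2 both hippocampal values were lower (1.625% and 1.527% in cortex, 1.328% and 1.466% in hippocampus).

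In AST1 the largest differences were in Ndufc2 (142.7, 157.6, 237.8 and 286.7 CPM, 0.84 ± 0.19, adjusted p = 0.257), Sdhc, another anchor of complex II (45.5, 50.4, 69.9 and 88.1, 0.75 ± 0.27), Ndufs8 (−0.55 ± 0.38) and Ndufb11 (96.5, 100.4, 129.9 and 143.1, 0.50 ± 0.19). The areas did not overlap in Ndufc2, Sdhc and Ndufb11, which were among 10 members higher in both hippocampal suspensions, while 16 were lower in both. The share of all genes without overlap is given only for all astrocytes (21.9% higher and 24.1% lower), so these counts are no result about the members. In AST3 they were in Ndufa11 (122.9, 109.4, 71.1 and 69.7 CPM, −0.67 ± 0.19, adjusted p = 0.381), Ndufa4 (148.5, 133.01, 217.3 and 213.8, 0.67 ± 0.14, adjusted p = 0.38), Atp5k (0.51 ± 0.39) and Ndufv1 (238.1, 194.3, 322.4 and 263.1, 0.49 ± 0.18). Here Ndufa11 was lower, and Ndufa4 and Ndufv1 higher, in both hippocampal suspensions, as were 16 members lower and 13 higher in all, these 3 included. The same limit applies to these counts. DESeq2 called 3 members higher and 3 lower in AST1, where it called 13.5% and 3.94% of all genes, and 5 higher and 2 lower in AST3, where it called 5.15% and 8.67%.

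The difference between areas was then compared between AST1 and AST3. edgeR called 0 members and 0% of all genes (4 members at an unadjusted p under 0.05), and the largest interaction terms were those of Ndufb5 (−0.82 ± 0.36), Ndufv1 (−0.79 ± 0.24, adjusted p = 0.499), Atp5g2 (0.77 ± 0.68) and Ndufs8 (−0.76 ± 0.44). DESeq2 called Ndufv1 and Ndufa4 lower, where it called 1.87% of all genes. In cortex 1 and 2 and hippocampus 1 and 2, Ndufv1 stood at 269.04, 245.4, 223.3 and 182.9 CPM in AST1, the order opposite to that in AST3.

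Genes that surround the chain were counted in the same comparisons, where edgeR called 12.7% of all genes lower in mural, 4.02% in endothelial and 2.65% in neuronal cells. In mural cells 6 of the 13 protein genes of the mitochondrial genome were called lower, for example mt-Co1 of complex IV (4402 against 11111 CPM), mt-Nd5 of complex I (475 against 1475) and mt-Nd1 (2199 against 4453), and edgeR called 0 of the 46 assembly factors tested (0 at an unadjusted p under 0.05, 0 by DESeq2). Of 13 regulators of mitochondrial biogenesis 1 was lower, the coactivator Ppargc1a (0.00696 against 165 CPM), and of 17 genes of the citric acid cycle and pyruvate dehydrogenase Suclg1 (180.7 against 357.4). Of 13 genes of exchange across the mitochondrial membranes 2 were lower, the glutamate carrier Slc25a18 (0.0303 against 960) and the ADP/ATP carrier Slc25a4 (664 against 1004), and of 16 glycolytic genes 6, among them Aldoc (11.02 against 14305), Eno1 (185.9 against 1428) and Gapdh (563 against 1421). With the total gene count only, 5 mitochondrial genome genes and 1 exchange gene were lower, Suclg1 was not called, and 1 glycolytic gene was called higher and 5 lower. In endothelial cells 6 mitochondrial genome genes, 5 exchange genes, 6 glycolytic genes, Suclg1 and Ppargc1a (0.0264 CPM) were called lower and Higd1b higher (292.3 CPM). With the total gene count only, these were 2, 3, 4, 0, 1 and 1. In neuronal cells mt-Co1 (3132 CPM), mt-Cytb of complex III (3253 against 8788) and 4 other mitochondrial genome genes were called lower, 6 with the total gene count only as well. Calls in the other lists are not given for neuronal cells.

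Within astrocytes, edgeR called 0 genes of these lists in AST1, in AST2, in AST3 or between areas (at most 4 genes of a list in a subtype and 10 between areas at an unadjusted p under 0.05). DESeq2 called at most 1 gene of a list in AST1 and AST2, 0 in AST3 and up to 7 between areas. In AST4, where 0.527% of all genes were called lower, Ppargc1a (54.6 against 205.1 CPM) and 5 of 16 glycolytic genes were called lower, for example Pfkp (52.2 against 341.2), Ldhb (670 against 2097) and Gapdh (777 against 1637), and as many with the total gene count only, while 0 genes of the citric acid cycle were called (7 at an unadjusted p under 0.05). In AST5, whose sums hold 6 to 10 cells, 0.356% of all genes were called higher and 16.6% lower. There 4 of the 13 regulators were called lower, Nrf1, Tfam, Polrmt and Gabpb1. They were at 0 CPM there, against 49.8, 23.2, 40.1 and 11.2 in the other subtypes. The pyruvate dehydrogenase subunit genes Pdha1 (623 against 200 CPM) and Pdhb (611 against 224.1), the channel gene Vdac2 (780 against 294.8) and the glycolytic genes Tpi1 (1471 against 613) and Ldhb (3580 against 1575) were called higher. Idh3g, a citric acid cycle gene, was called lower (319.1 against 389.8 CPM), as were the assembly factors Ndufaf3 (0.0383 against 32.7) and Lyrm7 (0 against 6.95). Whether these AST5 calls hold with the total gene count only is not given here. For the members, the fits in AST5 lay lower with TMM scaling than with that count. Of the mitochondrial genome 4 genes were called lower in AST5, and for mt-Co1 (13482 against 10982 CPM) and mt-Cytb (9578 against 8786) the direction was the opposite on CPM, with 0 called when the total gene count only was used.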

How the data were processed

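The cells were sequenced by the study as paired-end reads, and per the labels and the study's methods the reads were checked with FastQC 0.11.4, aligned with STAR 2.5.2b to GRCm38.p5 and counted per gene with HTSeq. The deposited values used here are raw counts per gene in each cell, which the authors did not normalise, and the strand setting of the counting is not given in the sources used here. Overlapping genes and near-identical copies can lose or share reads: 36 of the 78 members overlap another gene, and in 4 members at least 50% of the 75-base windows occur elsewhere. Of 49671 gene IDs 49326 had a symbol, and 92 spike-in rows were left out. A table of all cells by symbol served to find the members and to check 4 of its columns, and its other 2027 columns were not used. Cell types and subtypes came from the study's own list of cells, 33 cells that it does not hold and 15 without a type were kept apart, and no doublets were removed.

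Members and lists were chosen with earlier results of these data known. Counts were summed per class and suspension (at least 5 cells) and fitted with edgeR 4.0.16 (quasi-likelihood, robust, TMM scaling, filterByExpr) in R 4.3.3, with the Benjamini-Hochberg adjusted p over all genes and a threshold of 0.05. Types were fitted together, as were subtypes and, for areas, the sums compared. The SE given for edgeR is the absolute log2 difference divided by the square root of the F statistic of its test. It was not estimated separately. Alternatives were DESeq2 1.42.0, RLE size factors, no filter on low counts, 2 or 20 cells per sum, cells thinned to 50000 counts, a fit of only the classes compared, the suspension as a block and each suspension left out. Scaling by the total gene count only, TMM from abundant genes and limma 3.58.1 voom with sample weights were added after the data were seen. Named are fixed subunits of each complex, the 8 called members with the largest differences in each direction at 20 CPM or more, 4 uncalled ones where fewer than 4 were called, and all tissue isoforms. Not every gene that this rule names is reported here. Cox7a2l, Ndufa7, Atp5l, members named for ratios or for a call by DESeq2 alone, and the 2 members below 1 in AST5 were named after their values were seen. Same-numbered cortical and hippocampal suspensions come from different litters, and their deviations from the group means correlated at −0.015, so the numbers do not pair the areas. Between types and between subtypes the suspension is a true block, but the main fits held only the class or subtype and the area. They took the sums of the same suspension as independent. The 13 sums of types left 8 residual degrees of freedom and the 17 of subtypes 11, all from 4 suspensions. Suspensions are few, and p-values measure the spread between the sums of a fit. Counts of calls with the block are given below. Counts of amplified cDNA carry no molecular identifiers.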

Additional observations from a re-analysis of the deposited data

Results flagged for a closer look

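In 15 groups of 4 suspensions, 1 suspension stood apart from the others by more than Dixon's limit at the 95% level (10.49% of the groups tested). The limit is set to flag about 1 in 20 independent groups of normal values. Here groups were nested, since all astrocytes contain AST1 to AST3, and in some all other suspensions were at 0. The rates therefore cannot be compared. Hippocampal suspension 1 was the one apart in 9 of them. In mural cells it was low for Ndufs1 (115.5 CPM, the others 231.4 to 254.8) and Sdhb (112.3, the others 187.1 to 201.2) and high for Atp5g1 (54.5, the others 23.5 to 26.2) and Cox7a1 (0.751, the others 0). It was low for Cox7a1 in astrocytes (0.576, the others 2.54 to 2.71) and for complex II in AST2 (0.0687% of gene counts, the others 0.132% to 0.133%, in a sum of 10 cells), and high in AST3 for complex V (0.541%, the others 0.488% to 0.494%) and Atp5g1 (82.95 CPM, the others 74.8 to 75.1) and in AST1 for Ndufa4l2 (0.254 CPM, the others 0).

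Cortical suspension 1 was high for complex I in astrocytes (0.465%, the others 0.425% to 0.428%) and for Atp5g3 in mural cells (87.7 CPM, the others 14.8 to 23.99), and cortical suspension 2 was low for Atp5g2 in mural cells (3.79 CPM, the others 19.4 to 22.3, in a sum of 12 cells). Hippocampal suspension 2 was low for Cyc1 in AST2 (240.5 CPM, the others 392 to 416), Cox8a in AST1 (313.6, the others 336.4 to 339.5) and Atp5g2 in astrocytes (17.5, the others 20.3 to 20.4).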

How the results depend on the processing

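The number of members called depended on the processing, and the cause was not tested. Shares of all genes called are given above for the main fits and for part of those with DESeq2 or the total gene count only. The other counts have no such share beside them, nor have those at an unadjusted p under 0.05. They describe the processing and are no result about the members. Mural against astrocytes, 15 were called: 4 with RLE size factors, 2 with no filter, 4 with 2 cells per sum, 34 with 20, 24 with only the classes compared, 3 with the total gene count only, 6 with TMM from abundant genes and 0 to 2 with a suspension left out. With the suspension as a replicate block 2 were called. Endothelial (14): 4 with RLE, 24 with DESeq2, 3 with no filter, 4 with the suspension as a block, 23 with only the classes compared, 2 with the total gene count only, 6 with abundant genes, 8 with voom and 2 to 5 with a suspension left out. Neuronal (1): 9 with DESeq2, 3 thinned, 0 with 2 cells per sum, 33 with only the classes compared, 0 with the total gene count only, 3 with voom and 0 to 1 with a suspension left out.

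AST2 (0) had 1 call with voom. AST4 (1): 10 with DESeq2, 0 with no filter, 3 thinned, 0 with 2 cells per sum, 22 with 20, 3 with the other subtypes weighted equally, 3 with hippocampal sums only, 0 with the total gene count only, 4 with voom and 0 to 3 with a suspension left out. AST5 (1): 2 with RLE, 10 with DESeq2, 0 with no filter, 0 thinned, 0 with 2 cells per sum, 2 with AST4 left out, 25 with the total gene count only, 2 with abundant genes, 0 with voom and 0 to 3 with a suspension left out. Voom called largely different members: of the calls above it shared 5 of 15 in mural (Cox4i1, Cox5b, Ndufa4, Atp5b and Atp5c1, among 21 of its own), 2 of 14 in endothelial (Atp5a1 and Atp5b) and 0 of 1 in neuronal cells and in AST4, where Cox8a and Atp5b were lost, and DESeq2 shared 9 of 15, 13 of 14, 1 of 1 and 1 of 1. Areas (0): with DESeq2 9 in astrocytes, 6 in AST1, 7 in AST3 and 2 for their difference, 1 in thinned astrocytes, and 0 with a suspension left out, when 1 sum stands for an area and takes its spread from the other, as 1 sum does in neuronal cells and AST4 without a hippocampal suspension. The fits with the suspension as a replicate block left the other counts within 1.5 times.

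Without counts of the mitochondrial genome and rRNA the share of the members was 1.57% in AST3, 1.29% in AST4, 2.60% in AST5 and 1.58% in neuronal cells, where the mean over cells and the thinned cells each gave 1.51%. Within reverse transcription dates the difference between areas reached 0.0054, 0.066, −0.242 and −0.237 percentage points. With 1 suspension left out it was −0.159 to −0.063, and the shares were 1.46% to 1.52% in astrocytes, 1.42% to 1.48% in AST1, 1.44% to 1.54% in AST2, 1.48% to 1.52% in AST3, 1.21% to 1.23% in AST4, 2.397% to 2.490% in AST5, 1.16% to 1.21% in mural, 0.923% to 0.998% in endothelial and 1.54% to 1.56% in neuronal cells. The direction of 4 uncalled differences turned: Ndufa6 in AST2 (0.0064) and AST3 (−0.021) with voom, Ndufb2 in AST5 without hippocampal suspension 1 (−0.29, and up to 1.40 without another) and Ndufs8 between areas in AST1 without cortical suspension 1 (0.0062, and down to −0.95 without another). Sums of few cells limit the endothelial, neuronal and AST5 values, and 2 suspensions an area limit the areas.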

Other observations

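The 15 cells without a type had member shares of 2.73%, 2.33%, 1.67% and 1.84% of gene counts in cortical 1, cortical 2, hippocampal 1 and hippocampal 2, with 1.36%, 1.58%, 4.29% and 7.35% of reads outside exons. The 13 of them under 3% outside exons had a median member share of 2.49%, and the other 2, both hippocampal, had 0.795% and 0.671%. The 33 cells of cortical 1 that stand in no class had a share of 1.58%, with 13.2% of reads outside exons.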
